A study of Mus musculus with 2 samples.

Results

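The genes described here are nucleolar factors that build ribosomes. They were chosen by name from a list of 46 symbols, of which 45 were found among the 22020 gene symbols of the table, and Noc2l was not analysed here. RNA was sequenced from LSK cells, sorted bone marrow cells that lack lineage markers and carry c-Kit and Sca-1 at the surface, a fraction that holds blood stem cells and early multipotent progenitors. All mice were 8 weeks old and of the C57BL/6 strain, and both genotypes lacked the tumour suppressor p53. The p53 KO mice carried that deletion alone, and the Utx/p53 DKO mice also lacked Utx (Kdm6a), a histone demethylase encoded on the X chromosome. There was 1 library per genotype, so no difference has a replicate check and no test was made. The deleted exons, the driver of any conditional deletion and the number of mice behind each library were not found in the labels.

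Ribosome assembly starts in the nucleolus, where RNA polymerase I copies the ribosomal DNA into a long precursor RNA. Small nucleolar RNAs, carried by proteins of the box C/D and box H/ACA classes, guide chemical changes of that precursor. A large assembly called the SSU processome cuts it and shapes the small (40S) subunit, and further factors shape the large (60S) subunit. Many of these genes are known targets of the transcription factor MYC, and blood progenitors that grow and divide depend on them.

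Levels are given in RPKM (reads scaled to the length of the transcript and to the depth of the library), p53 KO first. A difference is that of log2(RPKM + 1), Utx/p53 DKO minus p53 KO, and the rule for a higher or lower gene is 2-fold or more on this scale. Genes with a mean RPKM of 1 or more were taken as measured, and these were 11356 genes, with all 45 nucleolar genes among them. Read totals were 17088105 and 19926294. Intervals are exact 95% intervals of the RPKM ratio from whole reads and cover counting error only, since amplified reads are not independent molecules. Of the targeted genes, Kdm6a was at 5.32 against 1.26 RPKM, a ratio of 0.236 (interval 0.193 to 0.287), and Trp53 at 19.4 against 12.9 RPKM. In RNA from a whole fraction, fewer cells of a type and less RNA per cell cannot be told apart.

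Most of the nucleolar genes had lower values in the DKO library, but by modest amounts. Of the 45 genes, 40 were below and 5 above their p53 KO value, against 7401 below and 3955 above over all 11356 genes measured. Among the 45 nucleolar genes, 8 were at least 2-fold lower and 0 at least 2-fold higher. Their median difference was -0.55, against -0.24 over all genes measured, so it lay 0.32 below that median on the log2 scale (-0.32), and 35 of the 45 were below the all-gene median. The 8 genes are 17.8% of the 45, near the 13.5% of all genes measured that were at least 2-fold lower. Of all genes measured, 6.6% were at least 2-fold higher. The summed level of the 45 genes was 2324 against 1654 RPKM. Their share of all RPKM was 0.644% with p53 KO and 0.353% with Utx/p53 DKO.

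**Figure D1:**
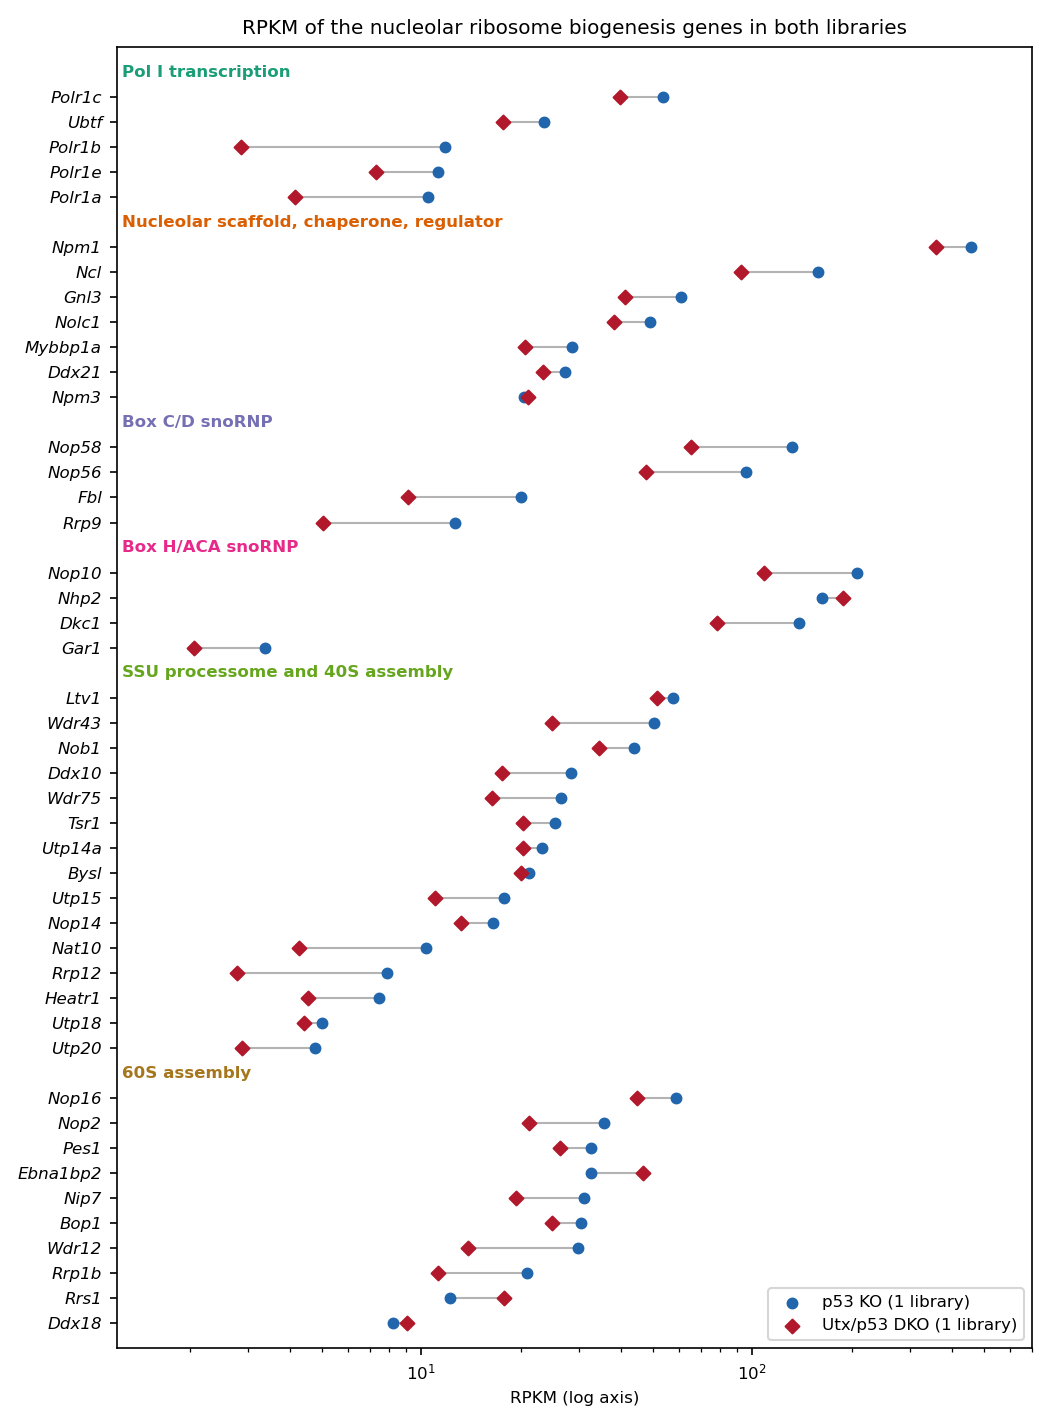
RPKM on a log axis of each nucleolar gene in the p53 KO library (circles) and the Utx/p53 DKO library (diamonds), grouped by role, 1 library per genotype. The diamond lies to the left of the circle for 40 of the 45 genes, and Rrs1, Ebna1bp2, Nhp2, Ddx18 and Npm3 are the exceptions.

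The direction against zero depended on how the libraries were scaled. A scaling moves all genes by nearly the same amount, so the position below other genes could hardly change and was not checked by it. The share of all RPKM taken by the 10 most abundant genes was 8.17% with p53 KO and 20% with Utx/p53 DKO, and the part of this in the lower values was not tested. With the authors' normalization constants applied, 23 of the 45 genes were below their p53 KO value, and their median difference was -0.02 against 0.28 over all genes measured, still 0.30 lower on the log2 scale (-0.30). On that scale 1 of them was at least 2-fold lower (Polr1b) and 2 were at least 2-fold higher (Rrs1 and Ebna1bp2), while over all genes measured 712 were lower and 1873 higher, in place of 1528 and 750. In the authors' deposited table, GFOLD, their log2 fold change shrunk for counting error, was below 0 for 15 of the 45 genes, 0 for 9 and above 0 for 21. Over all genes measured, the share below 0 in the authors' deposited table was 22.9% and the share above 0 was 54.5%, against 33.3% and 46.7% of the nucleolar genes.

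The exact intervals of the RPKM ratio lay below 1 for 38 genes, above 1 for 3 (Rrs1, Ebna1bp2 and Nhp2) and on both sides of 1 for 4 (Ddx18, Npm3, Bysl and Utp18). These counts are against a ratio of 1 before any rescaling, and the same count over all genes measured is not given here. They therefore do not set the nucleolar genes apart from other genes. The median RPKM ratio of the 45 genes was 0.649, and that of all genes measured was 0.825. Counting error was small for most genes, since the 42 genes whose reads could be recovered had medians of 1337 and 1092 reads. The shallowest was Gar1, with 73 and 52 reads.

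**Figure D2:**
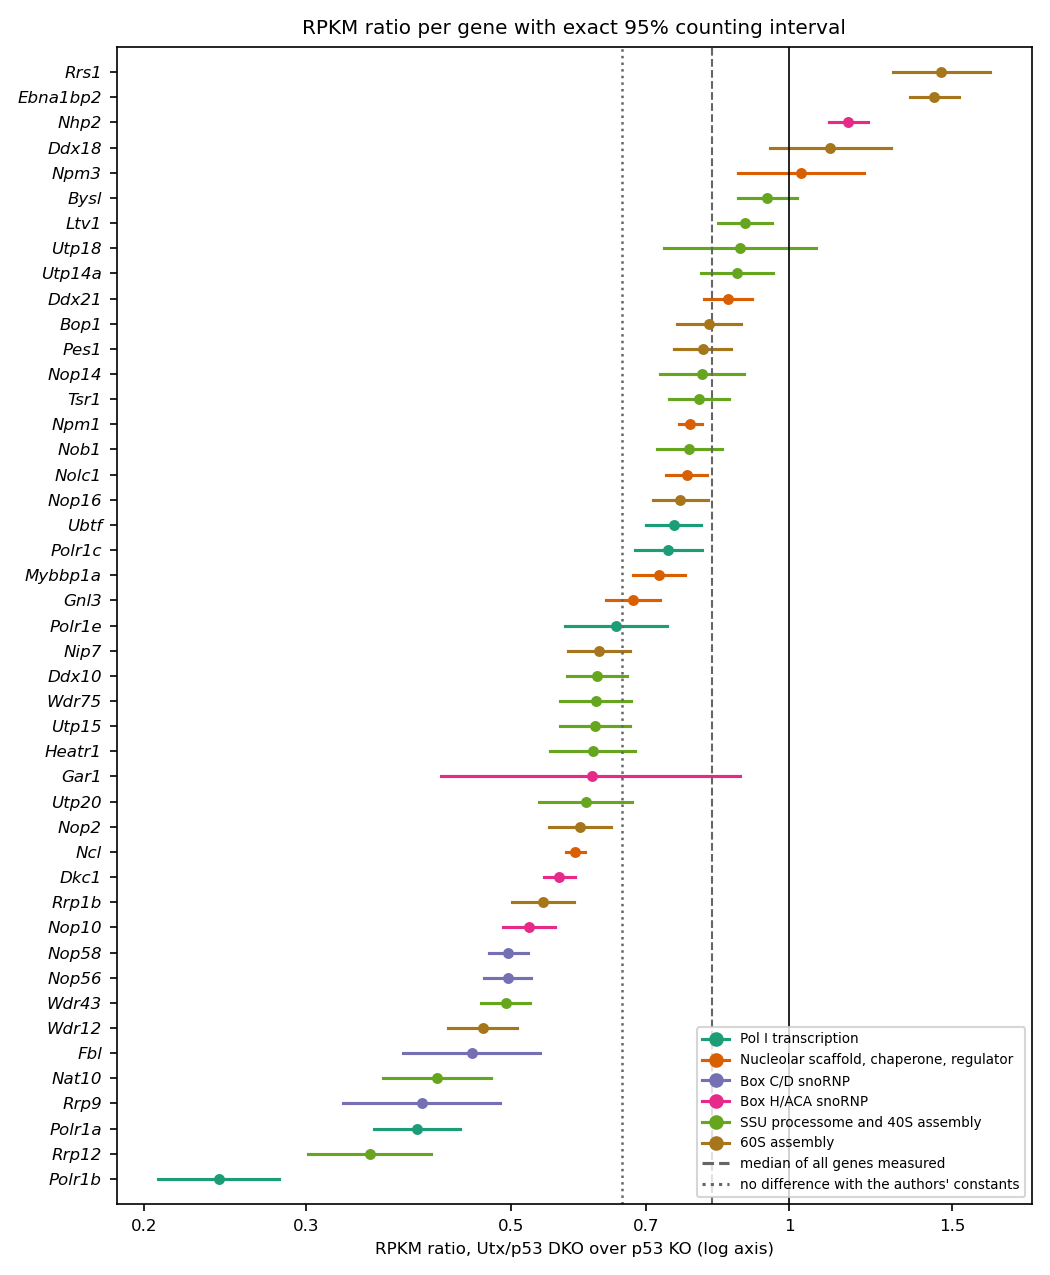
RPKM ratio, Utx/p53 DKO over p53 KO, of each gene (points, log axis) with its exact 95% counting interval (bars), coloured by role. The dashed line is the median ratio of all genes measured (0.825) and the dotted line is the ratio that the authors' constants set to no difference. Polr1b stands farthest to the left at 0.241 and Rrs1 farthest to the right at 1.46.

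The 5 listed genes of RNA polymerase I transcription were all lower in the DKO library, and Polr1b and Polr1a stood apart from the others. Polr1b, which encodes the second largest subunit of the polymerase, was at 11.8 against 2.85 RPKM (807 and 227 reads). This was the lowest ratio of the 45 genes, 4.15-fold lower (95% interval 3.57 to 4.82). Polr1a, which encodes the largest subunit, was at 10.5 against 4.16 RPKM, 2.53-fold lower (interval 2.27 to 2.81). The other genes of this role differed less than 2-fold. Polr1e, the gene of a subunit that helps the polymerase start and elongate, was at 11.2 against 7.28 RPKM. Polr1c, whose product is shared with RNA polymerase III, was at 53.9 against 39.9 RPKM. Ubtf, the gene of the factor UBF that keeps ribosomal DNA open, was at 23.5 against 17.6 RPKM. The intervals of the ratio of Polr1e (0.571 to 0.738) and Polr1c (0.680 to 0.805) did not overlap those of Polr1b (0.207 to 0.280) and Polr1a (0.355 to 0.440). Of 10 further RNA polymerase I genes, 8 were below and 2 above their p53 KO value, against 7401 and 3955 of all 11356 genes measured. Relative to the all-gene median, 3 of these 10 were below and 7 above. The 2 above their p53 KO value were Polr1d, at 73 against 83.8 RPKM (ratio 1.15), and Znrd1 (ratio 1.28).

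The 4 listed genes of box C/D particles, which guide methylation of ribosomal RNA, formed the lowest of the role groups. Their median difference was -1.03, with a narrow range from -1.17 to -0.997. This range does not hold for Nhp2l1, a further box C/D protein gene counted with the other snoRNP assembly genes. It was at 206 against 161 RPKM, a ratio of 0.781. Fbl, which encodes the methyltransferase fibrillarin, was at 20 against 9.09 RPKM, 2.20-fold lower (interval 1.86 to 2.62). The core proteins Nop58 and Nop56, which hold the guide RNA, were both close to the 2-fold line. Nop58 was at 132 against 65.5 RPKM, and its difference was -1.001 on the log2 scale. Nop56 was at 96 against 47.6 RPKM, and its difference of -0.997 left it just inside the line. Rrp9, a protein of the U3 particle that acts in the SSU processome, was at 12.6 against 5.06 RPKM, 2.50-fold lower (interval 2.06 to 3.04). Of these 4 genes, Rrp9 alone had an interval wholly past 2-fold, and the ratios were at most 0.496 in all 4.

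The genes of box H/ACA particles, whose RNAs guide the conversion of uridine to pseudouridine, did not share a direction. Dkc1, which encodes the pseudouridine synthase dyskerin, was at 139 against 78.1 RPKM, a ratio of 0.564 (interval 0.542 to 0.586). Nop10, a small core protein, was at 207 against 108 RPKM, a ratio of 0.523. Gar1, a protein bound to the catalytic domain, was at 3.36 against 2.05 RPKM, with a wide interval of its ratio from 0.420 to 0.884. Nhp2, the remaining core protein, went the other way, at 162 against 188 RPKM, a ratio of 1.16 (interval above 1, to at most 1.22). None of the 4 differed by 2-fold, and the interval of Nhp2 did not overlap those of the others.

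Among the abundant nucleolar scaffold, chaperone and regulator proteins, nucleolin differed more than nucleophosmin. Ncl (nucleolin, an RNA-binding protein of the dense part of the nucleolus) was at 158 against 92.7 RPKM, a ratio of 0.586 (interval 0.573 to 0.600). Npm1 (nucleophosmin, a histone and ribosome chaperone often mutated in leukaemia) was the most abundant of the 45 genes, at 458 against 358 RPKM, a ratio of 0.781 (interval 0.759 to 0.804). Npm1 has processed copies in the genome, and the sources used here do not say how reads with several places were counted, so its value is uncertain. Npm3, a related chaperone, was nearly level at 20.4 against 21 RPKM, with an interval of its ratio that held 1.

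The other 4 genes of this role lay between these values. Gnl3 (nucleostemin, a GTP-binding protein of stem and dividing cells) was at 61 against 41.3 RPKM and Mybbp1a, a repressor of ribosomal DNA transcription, at 28.5 against 20.6 RPKM. Nolc1, which chaperones small nucleolar particles, was at 49.2 against 38.1 RPKM, and the RNA helicase gene Ddx21 was at 27.2 against 23.4 RPKM. None of the 7 genes of this role differed by 2-fold, and their median difference was -0.36.

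All 15 genes of the SSU processome and small subunit assembly were lower in the DKO library, from -1.24 to -0.08 on the log2 scale (median -0.58). This direction holds for RPKM without rescaling, and 11 of the 15 were below the all-gene median and 4 above it. Rrp12, which helps export and mature the small subunit, was at 7.87 against 2.76 RPKM, 2.85-fold lower (interval 2.44 to 3.32). Nat10, which acetylates ribosomal RNA, was at 10.3 against 4.28 RPKM, 2.41-fold lower (interval 2.11 to 2.75). Wdr43, a scaffold of the processome, was at 50.4 against 24.9 RPKM and just inside the 2-fold line, with a difference of -0.99. These 3 genes stood below the rest of the role, whose ratios were 0.60 or higher.

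A middle set of processome genes had differences between -0.66 and -0.58. Wdr75 was at 26.4 against 16.3, the helicase gene Ddx10 at 28.4 against 17.6, and Utp15 at 17.8 against 11 RPKM. Heatr1 was at 7.43 against 4.55 and Utp20 at 4.76 against 2.86 RPKM, and both encode very long scaffold proteins. Wdr75, Utp15 and Heatr1, with Wdr43, belong to the module that binds the precursor RNA first.

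The smallest differences of this role included several late factors of the small subunit, though Rrp12, which also acts in its maturation, had the largest. Nob1, the nuclease that makes the last cut of the small subunit RNA, was at 44.1 against 34.3 RPKM. Tsr1, which blocks early joining of subunits, was at 25.4 against 20.3 RPKM, and Ltv1, which leaves the subunit late, at 57.5 against 51.5 RPKM. Bysl, which acts in the maturation and export of the particle, was at 21.1 against 20 RPKM, with an interval of its ratio from 0.880 to 1.02. Of the processome genes, Nop14 was at 16.4 against 13.2, Utp14a at 23.1 against 20.3 and Utp18 at 4.99 against 4.42 RPKM.

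The genes of large subunit assembly were the most spread out, from -1.05 to 0.51 on the log2 scale, with a median of -0.34. Wdr12 was at 29.8 against 13.9 RPKM, 2.15-fold lower (interval 1.97 to 2.34), and was the 1 gene of 10 in this role past the 2-fold rule. Its partners in the PeBoW complex, which is needed to process the large subunit RNA, differed less. Pes1 was at 32.5 against 26.2 RPKM (ratio 0.806) and Bop1 at 30.3 against 24.8 RPKM (ratio 0.818). The interval of the ratio of Wdr12 (0.427 to 0.508) did not overlap that of Pes1 (0.751 to 0.865) or Bop1 (0.756 to 0.885), so the 3 genes of this complex were unequal in these libraries.

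Rrs1 and Ebna1bp2 were the highest of the 45 genes relative to p53 KO. Rrs1, which helps bring the 5S particle into the large subunit, was at 12.2 against 17.8 RPKM, a ratio of 1.46 (interval 1.29 to 1.65). Ebna1bp2, an early large subunit factor, was at 32.5 against 46.7 RPKM, a ratio of 1.44 (interval 1.35 to 1.53). The helicase gene Ddx18 was at 8.20 against 9.08 RPKM, with an interval of its ratio from 0.954 to 1.29.

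The other large subunit genes were lower by less than 2-fold. Rrp1b was at 20.8 against 11.2, the RNA methyltransferase gene Nop2 at 35.6 against 21.1 and Nip7 at 30.9 against 19.3 RPKM. Nop16 was at 59 against 44.9 RPKM. Of the 45 genes, 5 had more than 1 transcript in the table (Nip7, Nolc1, Rrp1b, Ubtf and Wdr12), and all 3 transcripts of Wdr12 were at least 2-fold lower.

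The rest of the pathway was, as a whole, closer to the all-gene median than the 45 nucleolar genes, while for large subunit genes the order was opposite. Of 117 further ribosome biogenesis genes in 5 role lists, 115 were found and measured, of which 6 were lower and 1 was higher by the 2-fold rule. These are 5.22% and 0.870% of the list, below the 13.5% and 6.6% of all genes measured. Their median difference was -0.34, and 67 of the 115 were below the all-gene median. The other large subunit genes had the lowest median (-0.46, 45 genes), below the -0.34 of the 10 large subunit genes above. Other small subunit genes had a median of -0.24 (37 genes), other snoRNP assembly genes -0.28 (9 genes), other RNA polymerase I genes -0.15 (10 genes) and nuclear RNA exosome genes -0.17 (14 genes).

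The 6 lower genes were spread over 3 of those lists. Nle1, a large subunit factor also known for a need in blood stem cells, was at 8.78 against 1.87 RPKM, and Surf6 was at 23.6 against 8.01 RPKM. The small subunit genes Wdr46 (14.6 against 5.59), Dhx37 (2.37 against 0.570) and Pwp2 (9.93 against 4.43 RPKM) and the box H/ACA assembly gene Shq1 (13.6 against 5.35 RPKM) were also lower. Krr1, a small subunit processome gene, was the 1 gene at least 2-fold higher, at 36.7 against 112 RPKM, a ratio of 3.04 (interval 2.93 to 3.17).

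At the ends of the remaining lists, differences were below 2-fold. Gnl3l was at 22.3 against 27.9, Tcof1, the gene of the nucleolar protein treacle, at 25.7 against 14.2 and Znrd1 at 31.5 against 40.3 RPKM. Znhit3 was at 34.7 against 37.1, and of the exosome, which trims precursor RNA, Exosc4 was at 33.7 against 22.6 and Exosc3 at 2.83 against 4.61 RPKM.

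**Figure D3:**
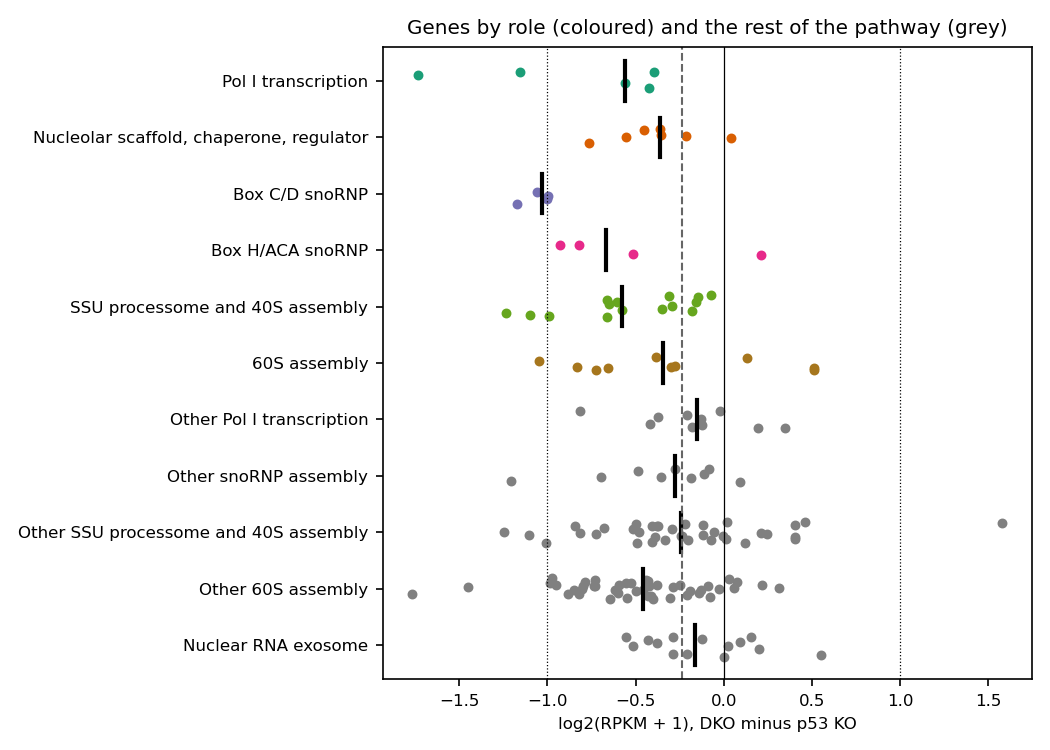
Difference of log2(RPKM + 1), Utx/p53 DKO minus p53 KO, of each nucleolar gene by role (coloured points) and of the other ribosome biogenesis genes (grey points, vertical scatter for visibility only), with each list's median as a black bar, the all-gene median (-0.24) as a dashed line and 2-fold differences as dotted lines. The 4 box C/D genes listed by role lie in a tight group near -1.03, and the other lists spread across the dashed line or close to it. Nhp2l1, a further box C/D protein gene, is among the grey points.

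The distance from other genes was largest in the most abundant class. Over all genes measured the median difference was higher at higher levels, from -0.34 in 6044 genes with a mean below 10 RPKM to 0.13 in 1447 genes whose mean was 50 RPKM or more. The medians of the nucleolar genes in these level classes were -0.60 (11 genes) and -0.66 (10 genes). In the classes between, from 10 to 20 and from 20 to 50 RPKM, they were -0.65 (5 genes) and -0.36 (19 genes), against -0.23 and -0.17 over all genes measured, so the class from 20 to 50 RPKM, with the most nucleolar genes, was the closest to other genes.

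**Figure D4:**
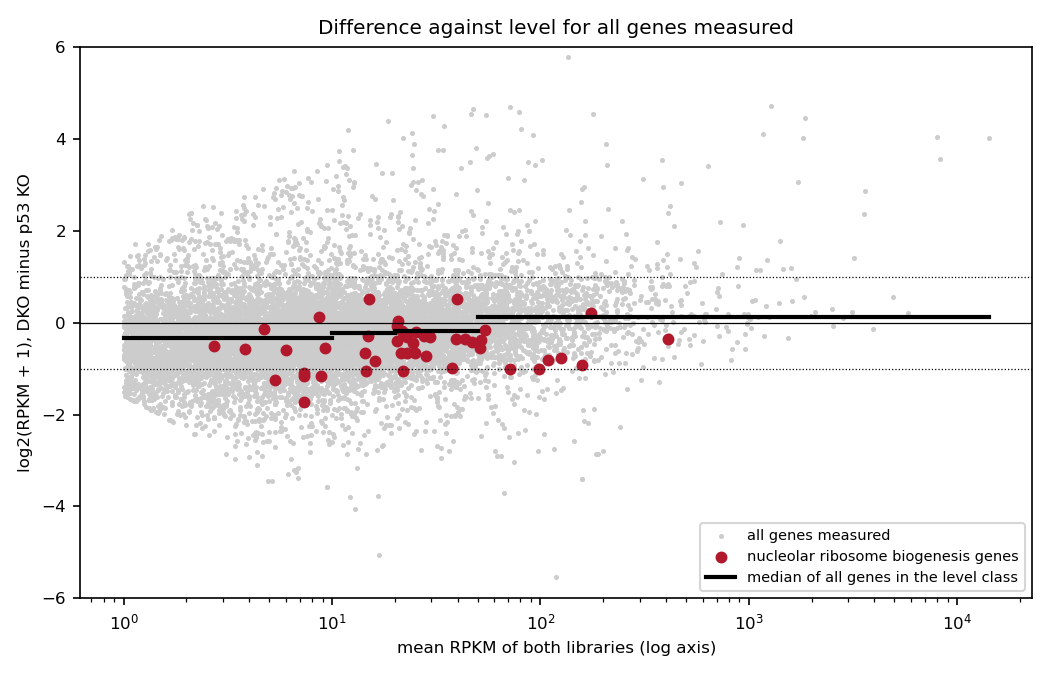
Difference of log2(RPKM + 1) against the mean RPKM of both libraries (log axis) for 11356 genes measured (grey) and the nucleolar genes (red), with the median of all genes in each level class (black bars) and 2-fold differences (dotted). Of the 10 nucleolar genes at 50 RPKM or more, 8 lie below the median of all genes at all levels (-0.24, not drawn).

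Myc, which drives many of these genes, was at 108 against 22.7 RPKM, 4.75-fold lower (interval 4.45 to 5.09). Antagonists of MYC in its network went both ways. Mxi1 (6.25 against 17.5), Mxd1 (5.07 against 6.97), Mxd3 (19.7 against 28.9) and Mxd4 (10.8 against 16.2 RPKM) had higher values, as did Mlx (14.6 against 52.5 RPKM). Max, the common partner, was at 73.5 against 63, and Mycn at 12.1 against 8.31 RPKM. The antagonist genes Mnt (3.78 against 2.89) and Mga (15.8 against 7.24 RPKM) had lower values. Of the 10 network genes measured, Mxi1 and Mlx were higher by the 2-fold rule, and Myc and Mga lower. The 4.75-fold difference of Myc was larger than that of each of the 45 nucleolar genes, of which Polr1b came nearest at 4.15-fold. The interval of Polr1b (3.57 to 4.82) overlapped that of Myc. A link between the level of Myc and those of the nucleolar genes was not tested.

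The letters CACGTG, the E-box that MYC with MAX is known to bind, were searched in RefSeq promoter windows of build GRCm38.p6, which hold 250 bases before and 50 after a gene's start. This motif reads the same on both strands. Of the 40 nucleolar genes with a window, 8 (20%) held a match, against 1063 of 8804 measured genes with a window (12.1%) and 7.15% of all 32851 windows. The 6 of these genes with the highest mean RPKM are shown. The windows fix how far from the start a match can lie. Each line gives the gene's strand, 5′ to 3′, with the motif in capitals and up to 12 bases on either side, cut at the end of the window.
Ltv1: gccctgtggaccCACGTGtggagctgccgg
Wdr43: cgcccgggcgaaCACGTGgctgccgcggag
Pes1: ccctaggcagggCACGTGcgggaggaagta
Nop2: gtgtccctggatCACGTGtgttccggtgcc
Mybbp1a: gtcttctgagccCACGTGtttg
Tsr1: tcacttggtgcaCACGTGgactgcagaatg

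In 5 of these 6 genes the motif lay just after the annotated start, with its first base at position 29 in Ltv1 (chr10:13193092-13193121, minus strand), 18 in Wdr43 (chr17:71616220-71616249, plus), 3 in Pes1 (chr11:3963965-3963994, plus), 41 in Mybbp1a (chr11:72441355-72441376, plus) and 25 in Tsr1 (chr11:74898092-74898121, plus). Positions count from 1 at the start. Nop2 (chr6:125131811-125131840, plus) had it 60 bases before the start (-60), and the 250 bases before its start (chr6:125131633-125131882) are shown whole because it is the most abundant of the genes with the motif upstream.
Nop2: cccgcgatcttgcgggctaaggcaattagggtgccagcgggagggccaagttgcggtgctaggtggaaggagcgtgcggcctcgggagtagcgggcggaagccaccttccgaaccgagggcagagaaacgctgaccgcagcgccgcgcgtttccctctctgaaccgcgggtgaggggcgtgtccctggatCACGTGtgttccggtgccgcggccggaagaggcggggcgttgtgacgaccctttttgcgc
The other two matches were in Utp18 at -20 and Utp20 at 38.

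Nucleolar genes with a window and no match ran from -1.73 to 0.51. The 8 genes with the motif were all lower in the DKO library, from -0.99 in Wdr43 to -0.15 in Utp18. Their median difference was -0.38 (8 genes, of which 0 were at least 2-fold lower), against -0.58 in the 32 with a window and no match. Over all genes measured, the medians with and without a match were -0.25 and -0.24. A match describes these letters only, and binding of MYC was not measured.

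Genes that carry small nucleolar RNA genes within their span, on the same strand in the GENCODE M21 annotation, were common among the nucleolar genes. There were 7 such hosts of 45 (15.6%), Nop56, Nop58, Wdr43, Ncl, Gnl3, Tsr1 and Dkc1, against 179 of 9750 measured genes found in the annotation (1.84%). Nop56 carried 5 and Nop58 4 of these small RNA genes. The median difference of the 7 hosts was -0.82, from -1.001 in Nop58 to -0.31 in Tsr1, and that of the other 38 nucleolar genes was -0.44. Over all genes measured the order was opposite, with -0.12 in hosts and -0.24 in the rest. This feature was looked for after the values were seen.

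The 4 nucleolar genes on chromosome 2 (Polr1b, Nat10, Nop56 and Nop10) lay where other genes were also lower. The median difference of the 846 measured genes on chromosome 2 was -0.63, against -0.21 on the other chromosomes, and 26.5% of them were at least 2-fold lower. Among the 50 measured genes on either side of each of the 4 genes, the median was between -0.80 and -0.75. Against those neighbours Polr1b was still 0.96 lower on the log2 scale (-0.96), while Nat10 (-0.31), Nop56 (-0.20) and Nop10 (-0.18) were close to them. Without these 4 genes, 6 of 41 nucleolar genes were at least 2-fold lower, and the median was -0.45, which is -0.21 relative to all genes. Of the 45 genes, 36 were below the median of their own neighbours (median distance -0.27). On the Y chromosome all 4 measured genes were at least 2-fold lower (median -1.93), and a difference in sex between the libraries was not tested.

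**Figure D5:**
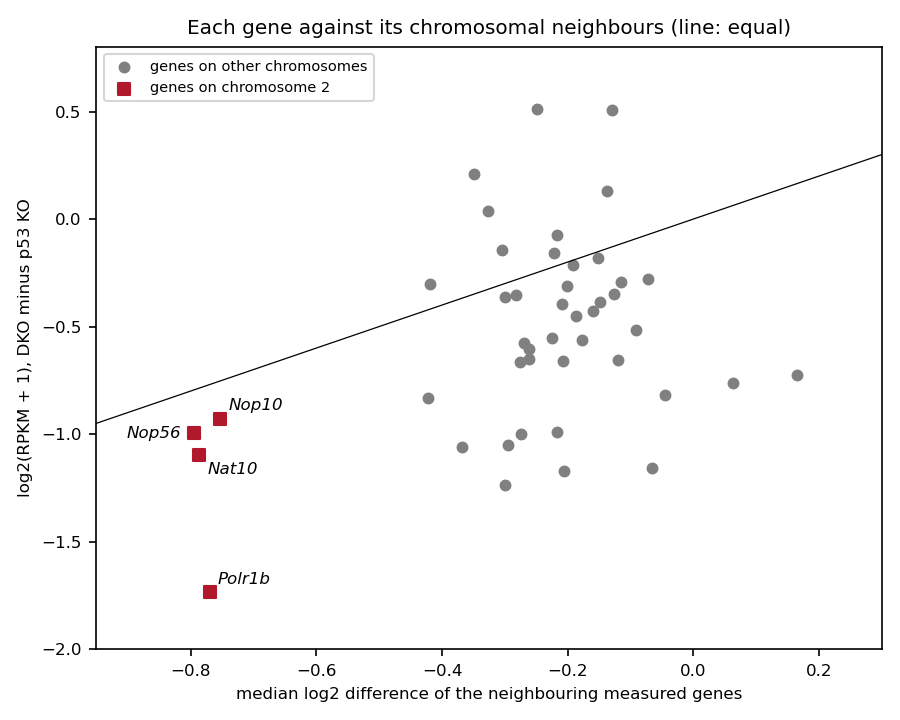
Difference of log2(RPKM + 1) of each nucleolar gene against the median difference of up to 50 measured genes on either side of it, with the line of equal values. The 4 genes on chromosome 2 (squares) have neighbours between -0.80 and -0.75, and Polr1b lies farthest below the line among them.

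Cell type markers also differed between the libraries. Kit, of the sort gate, was at 64.2 against 16 RPKM, and Ly6a, which encodes Sca-1, at 255 against 281 RPKM. Of 17 granulocyte and monocyte markers, 14 were higher and 2 (Ltf and Itgam) lower by the 2-fold rule, with a summed level of 6371 against 71711 RPKM. Ly6c2 was at 919.5 against 15136, Elane at 1649 against 26714 and Lyz2 at 1302 against 15319 RPKM. The other marker lists had lower sums in the DKO library. Of 9 stem cell markers measured, 7 were at least 2-fold lower (sum 606 against 98.2 RPKM), with Meis1 at 134 against 15.7 and Cd34 at 348 against 49.1 RPKM. Of 11 lymphoid and B cell markers measured, 10 were lower and Igll1 was higher (sum 753 against 632 RPKM), with Dntt at 234 against 4.05, Rag2 at 10.3 against 0.0296 and Flt3 at 24.5 against 1.83 RPKM. Erythroid and megakaryocyte markers were lower for 6 of 8 (sum 765 against 125 RPKM), with Hba-a1 at 290.4 against 26.7, Hbb-b1 at 324 against 43.9 and Car1 at 88.7 against 15.2 RPKM. Mast cell and basophil markers were lower for 3 of 4 (sum 72 against 22.5 RPKM), with Prss34 at 33.6 against 0.0413, Fcer1a at 6.73 against 0.293 and Cpa3 at 14.5 against 4.46 RPKM. Among all markers of these lists, Epor alone was listed at 0, in the DKO library. The part of cell makeup in the differences of the nucleolar genes was not tested.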

How the data were processed

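Poly(A) RNA of LSK cells gave 2 libraries, and the labels' genotype set the groups. Per the submitters' processing notes, bcl2fastq 1.8.4, TopHat2 2.1.0 and the build mm9 were used. Per the file headers, gfold 1.1.4 made the deposited RPKM values, the log2 fold change and GFOLD, also in log2 units. The deposited q-value (E-FDR) was 1 for every transcript. The header names WT-LSK (p53 KO) first and KO-LSK (Utx/p53 DKO) second, which set the columns, and gives constants of 1.30144 and 1, a shift of 0.602 on the log2 scale against RPKM. The sources used here do not say whether counting used strand, so overlapping antisense reads cannot be told apart. cDNA was amplified, per the labels' protocols, which can distort low values.

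Per symbol the transcript with the highest mean RPKM was used, with a pseudocount of 1 RPKM, which understates differences of low genes. The text names all 45 nucleolar genes found, of the other ribosome biogenesis genes those past 2-fold and the lowest and highest of each list, the measured Myc network, the gate and targeted genes, and up to 3 genes with the largest differences per marker list, of which 1 is not reported here. Nhp2l1 and Polr1d, from the other ribosome biogenesis genes, are named besides these, next to genes of a like role. The genes and lists were chosen with earlier results of these data known. Whole reads were recovered by finding the transcript length at which both RPKM values and the log2 fold change fit whole reads. This gave exactly 1 solution for 42 of the 45 genes and 89.9% of the measured genes, and the recovery was tested on simulated data. For Ncl, Npm1 and Ddx21, which had several solutions, the interval is the widest that the fewest reads give. Chromosome and gene order came from the RefSeq table of GRCm38.p6. Python 3.11.15, pandas 2.3.3 and scipy 1.17.1 were used. Alternatives changed the pseudocount, filter, scaling, choice of transcript and size of the fold rule.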

Additional observations from a re-analysis of the deposited data

How the results depend on the processing

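The median of the 45 genes stayed below the all-gene median under each alternative run, from -0.44 to -0.21, the ends being no filter on low values (-0.44, and -0.22 for the other ribosome biogenesis genes) and leaving out the genes of chromosome 2 (-0.21, chosen after seeing the data, with a median difference of -0.45). The count of 8 genes at least 2-fold lower was less stable. It was 10 (22.2%) with a pseudocount of 0.1 RPKM, against 18.7% of all genes. It was 1 with a pseudocount of 5 RPKM (median -0.39, with 4.19% of all genes lower), 1 after centring on the all-gene median (-0.32), 4 with upper-quartile scaling (-0.41), 18 with scaling to equal totals (-0.84) and 1 with the authors' constants (-0.0196, with 2 genes higher). It was 20 (44.4%) with a 1.5-fold rule and 1 (2.22%) with a 3-fold rule, against 29.6% and 4.34% of all genes. The 6 lower genes of the rest of the pathway became 11 with a pseudocount of 0.1 RPKM, 2 with 5 RPKM, 3 after centring, 22 with equal totals, 1 with the authors' constants, 28 with a 1.5-fold rule and 1 with a 3-fold rule. Scaling moved the all-gene median by 0.24, 0.13, -0.31 and 0.52 (centring, upper quartile, equal totals, authors' constants), and these shifts move all counts. The 45 genes move almost equally with it, so these scalings could hardly change their position relative to the all-gene median. Among all genes measured, 750 were higher and 1528 lower, against 1094 and 995, 949 and 1251, 498 and 2709, and 1873 and 712 with those scalings. No paired analysis was possible because each genotype has 1 library, and no spread between mice can be estimated.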
